A study of Mus musculus with 21 samples.

Results

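Ighv1-72, the lambda light chain genes Iglv1, Iglv2, Iglv3, Iglc1, Iglc2 and Iglc3, and the kappa constant gene Igkc were followed across labelled B cells and plasma cells of mice immunised with NP. These 8 genes, of 14493 in the deposited gene table, were taken by name: the heavy chain V gene and the light chain class known from the NP response, with Igkc as the counterpart of the other light chain class. Each gene was measured as its share of the heavy chain V, light chain V or light chain constant UMIs (unique molecular identifiers, 1 per captured RNA molecule), and as the share of cells in which it held more UMIs than any other gene of that class. A cell was assigned to a gene only when that gene held at least 3 UMIs and no other gene tied with it; such a cell is called an Ighv1-72 cell or an Iglv1 cell below, and an assigned cell is one with any such gene in the class.

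The study followed germinal centre B cells and plasma cells (PC) of the draining lymph nodes after immunisation at the base of the tail with 100 µg of NP-KLH, a hapten coupled to a carrier protein, in Sigma Adjuvant System. All mice carried an inducible Cre-ERT2 label and received 5 mg of tamoxifen once, not before day 6, and living IgD-negative eYFP+ cells were sorted. The 6 mice were taken in pairs 10, 16 or 22 days after immunisation, and there was no mouse without immunisation. The strain, age and Cre driver are not given in the sources used here. Cells of all mice were pooled after hashing and loaded as a PC and a non-PC fraction, so the mouse of each cell comes from the deposited cell table. That table held 6619 cells, 436 from the well of PC and 6183 from the other well, with 1335 to 70744 UMIs each and 6260885 to 18599219 UMIs a mouse. The fractions shared 6 cell barcodes.

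The authors' states were used as deposited: LZ (3194 cells), DZ (2382 cells), LZtoDZ (232 cells), preMem (522 cells), prePC (47 cells) and PC (242 cells). DZ, LZ and LZtoDZ together, 5808 cells, are called germinal centre cells here. All 6 plasma cell markers were detected in PC, where they summed to 13709 to 21391 CPM by mouse (counts scaled to 1 common library total), against 343 to 653 in preMem, 1605 to 1868 in DZ and 1030 to 1148 in LZ. The 5 T cell markers summed to at most 8.17 CPM in any mouse and state other than prePC, where they reached 154. The 5 myeloid markers summed to at most 122 CPM in LZ, 91.8 in PC and 238 in prePC, and their part in the results was not tested.

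An antibody is built from paired heavy and light chains, each with a variable part assembled from V, D and J segments (V and J in light chains) and a constant part. A light chain is kappa or lambda, and in mice the kappa locus holds many V genes while the lambda locus holds few, so most mouse B cells carry kappa. The response of C57BL/6 mice to the hapten NP is the classical exception: early NP-binding cells often pair the heavy chain V gene Ighv1-72, long known as V186.2, with a lambda light chain built from Iglv1 and Iglc1. In the germinal centre such cells divide and mutate in the dark zone and are tested for antigen binding in the light zone, and those that leave become memory B cells or plasma cells.

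All 8 genes lie in the antigen receptor loci of GRCm38, as annotated in GENCODE M21. Ighv1-72 is a V gene with 2 coding exons on the minus strand at chr12:115757984-115758461. The lambda genes lie on the minus strand of chromosome 16, with Iglc1 at chr16:19061618-19062071, Iglc3 at chr16:19065230-19065681 and Iglv1 at chr16:19085017-19085500, followed by Iglc2 at chr16:19198396-19200351, Iglv3 at chr16:19241207-19241690 and Iglv2 at chr16:19260401-19260859. Igkc lies on the plus strand at chr6:70726435-70726966. The V exons decide how well a read can be given to 1 gene, so the coding V segments of the 2 V genes the results turn on are shown with their nearest measured relatives, from the second coding exon without its leader bases. Capitals mark the bases at which a gene differs from the other gene of its pair, and positions below count from 1 at the 5′ end of each run.
Ighv1-72: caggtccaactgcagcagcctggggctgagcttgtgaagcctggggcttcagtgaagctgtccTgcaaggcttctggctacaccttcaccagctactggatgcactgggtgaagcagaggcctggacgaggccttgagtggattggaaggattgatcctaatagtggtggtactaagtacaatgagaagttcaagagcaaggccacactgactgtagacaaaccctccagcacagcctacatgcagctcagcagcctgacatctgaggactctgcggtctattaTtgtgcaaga
Ighv1-62-3: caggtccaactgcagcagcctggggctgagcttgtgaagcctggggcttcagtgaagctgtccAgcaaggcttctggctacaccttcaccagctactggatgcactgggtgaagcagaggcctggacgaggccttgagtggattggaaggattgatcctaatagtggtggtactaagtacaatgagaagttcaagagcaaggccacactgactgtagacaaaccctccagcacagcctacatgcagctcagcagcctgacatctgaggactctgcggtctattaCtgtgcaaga
Iglv1: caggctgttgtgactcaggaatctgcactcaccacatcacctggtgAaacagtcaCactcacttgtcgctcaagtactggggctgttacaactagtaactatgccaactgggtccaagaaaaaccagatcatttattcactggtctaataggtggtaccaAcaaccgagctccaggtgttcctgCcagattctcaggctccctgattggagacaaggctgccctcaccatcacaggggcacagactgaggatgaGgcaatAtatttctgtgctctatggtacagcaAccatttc
Iglv2: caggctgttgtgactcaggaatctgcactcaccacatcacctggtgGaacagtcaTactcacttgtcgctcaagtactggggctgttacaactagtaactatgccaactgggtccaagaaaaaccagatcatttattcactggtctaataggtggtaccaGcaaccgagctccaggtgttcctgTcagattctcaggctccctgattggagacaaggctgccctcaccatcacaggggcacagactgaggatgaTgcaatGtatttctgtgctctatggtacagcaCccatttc
The first pair covers chr12:115757984-115758277 and chr12:115460999-115461292, the second chr16:19085017-19085310 and chr16:19260401-19260694, all on the minus strand. Ighv1-72 and Ighv1-62-3 were 99.3% identical over 294 bases and differed at T64A and T285C, given as the base in Ighv1-72, the position and the base in Ighv1-62-3. Of 105 heavy chain V genes with a coding sequence in the annotation, out of 125 in the gene table, the next nearest to Ighv1-72 were Ighv1-64 and Ighv1-53, each 95.9% identical with 12 differences. Iglv1 and Iglv2 differed at 7 positions and were 97.6% identical, whereas Iglv1 and Iglv3 shared 53.9%. Iglc2 and Iglc3 were 96.2% identical over their coding exon, and Iglc1 shared 73.4% with Iglc2 and 74.5% with Iglc3. Counts of the close pairs, Ighv1-72 with Ighv1-62-3, Iglv1 with Iglv2 and Iglc2 with Iglc3, are therefore uncertain where a read fits both.

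Few Ighv1-62-3 UMIs were counted beside Ighv1-72. In Ighv1-72 germinal centre cells, Ighv1-62-3 held 1.26% of the heavy chain V UMIs and was seen in 58 of 335 cells (17.3%), against 0.188% of other germinal centre cells. In the 27 Iglv2 germinal centre cells, Iglv1 UMIs amounted to 24.7% of the Iglv2 UMIs summed over cells, with a median of 2 a cell. They amounted to 31.4% of the Iglv3 UMIs in the 10 Iglv3 cells, with a median of 1 a cell, although Iglv3 is not closely similar to Iglv1. Iglv1 UMIs were also found at low level in cells of the other light chain class: 51.6% of kappa V cells of the non-PC fraction had at least 1, with a mean of 1.66 UMIs and a range of 49.0% to 54.1% of cells by mouse, at a median depth of 8255 UMIs. Kappa V cells of the PC well held more: 70.9% had an Iglv1 UMI, with a median of 2 and a mean of 45.7 UMIs, at a median depth of 15170 UMIs. That mean was highest in day 22 mouse 1 (158 UMIs, median 22) and day 10 mouse 2 (60.8 UMIs, median 11). Ighv1-72 UMIs were found in 6.92% of non-PC fraction cells assigned to another heavy chain V gene, 5.62% to 8.85% by mouse, at a median depth of 8622 UMIs. Iglv1 cells of the germinal centre held a median of 73.5 Iglv1 UMIs, and Ighv1-72 cells held a median of 9 Ighv1-72 UMIs (3 to 89).

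Ighv1-72 was among the most used heavy chain V genes of the germinal centre, and its share was highest in the mice taken at day 10. It led in 14.9% and 11.2% of assigned germinal centre cells in day 10 mouse 1 and mouse 2, in 11.5% and 4.72% in day 16 mouse 1 and mouse 2, and in 0.956% and 4.94% in day 22 mouse 1 and mouse 2. The days did not separate fully, since day 16 mouse 1 lay above day 10 mouse 2 and day 22 mouse 2 above day 16 mouse 2. Among the 125 heavy chain V genes it ranked 1, 2, 1, 7, 18 and 5 in the same order of mice. With a mean of 8.04% ± 5.29 (SD, n = 6 mice) it stood second to Ighv1-22, with 11.6% ± 9.01, and ahead of Ighv1-81 with 5.36% ± 4.96, Ighv1-53 with 4.55% ± 4.54, Ighv1-64 with 4.38% ± 3.12 and Ighv1-26 with 3.38% ± 0.676. These neighbours in the order do not differ beyond their spread over mice. Ighv1-22 showed the opposite order over the days, from 2.93% and 2.73% at day 10 to 26.6% and 16.6% at day 22.

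Iglv1 was the most used light chain V gene, kappa genes included. It led in 22.0% and 15.7% of assigned germinal centre cells at day 10, 13.5% and 10.1% at day 16, and 3.05% and 8.99% at day 22, each pair given as mouse 1 and mouse 2. The mean was 12.2% ± 6.45 (SD, n = 6 mice). Every day 10 mouse was above every day 16 mouse, and every day 16 mouse above every day 22 mouse. Iglv1 ranked first among 115 light chain V genes in both mice of day 10 and in day 16 mouse 1, then 2 in day 16 mouse 2, and 7 and 3 at day 22. The kappa genes next to it were Igkv9-120 with 8.11% ± 11.02, Igkv14-111 with 7.16% ± 4.79, Igkv10-96 with 4.28% ± 2.79, Igkv9-124 with 3.93% ± 5.54 and Igkv12-98 with 3.91% ± 3.86. Igkv9-120 was carried by day 22, where it led in 28.7% of cells of mouse 1 and 12.7% of mouse 2. The other lambda V genes were rare: Iglv2 led in 27 and Iglv3 in 10 of 5754 assigned germinal centre cells, against 628 for Iglv1.

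**Figure D1:**
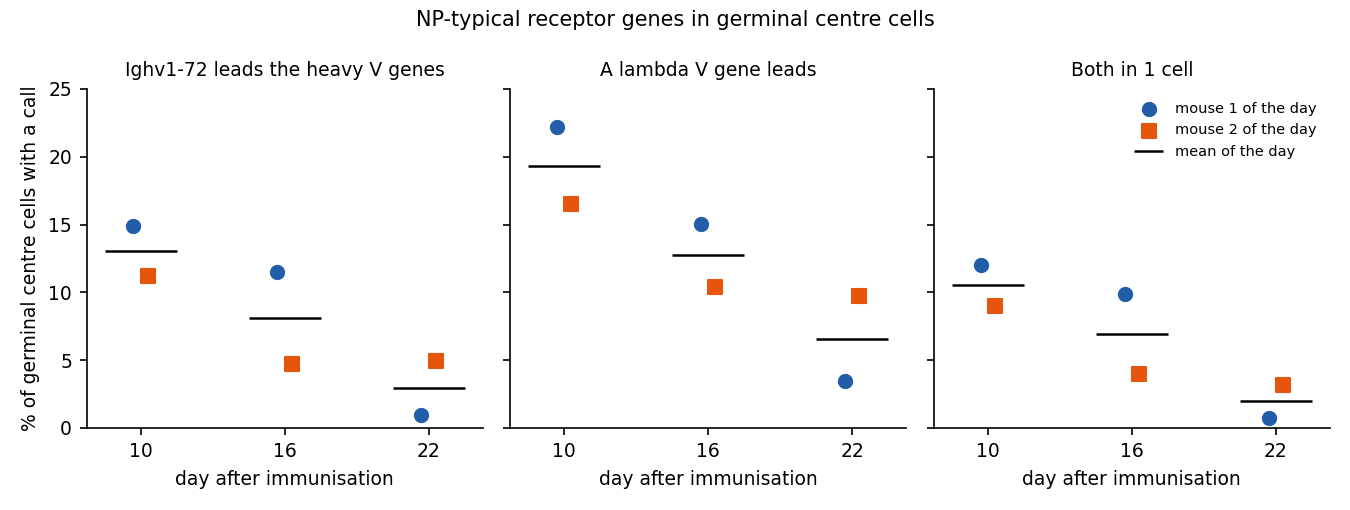
Percent of assigned germinal centre cells in which Ighv1-72 leads the heavy chain V genes (left), a lambda V gene leads the light chain V genes (middle), or both hold (right), by day after immunisation; each point is 1 mouse and the bar is the mean of the day. The lambda V share runs from 22.2% and 16.5% at day 10 to 3.45% and 9.69% at day 22, with no overlap between days.

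The trend over days was tested on the mice, with an exact permutation of the 6 mice over the days (2-sided, 90 arrangements, smallest p 0.0222). The share of Ighv1-72 cells had a slope of -0.843 percentage points a day (exact p = 0.0889, adjusted p = 0.133 over 3 slopes). The other planned slopes used lambda called from the constant genes (Iglc1, Iglc2 and Iglc3 against Igkc) and did not pass. For lambda cells the slope was -0.657 (exact p = 0.467, adjusted p = 0.467). For Ighv1-72 with lambda it was -0.673 (exact p = 0.0667, adjusted p = 0.133). The class called from light chain V genes, given next, was added after the data were seen. Lambda V cells (Iglv1, Iglv2 or Iglv3) made up 22.2% and 16.5% at day 10, 15.0% and 10.4% at day 16, and 3.45% and 9.69% at day 22, a slope of -1.06 points a day (exact p = 0.0222, adjusted p = 0.0444 over 2 slopes). Without any 1 of the 6 mice the exact p was 0.0667, which is the smallest the design allows without a day 16 mouse; without a day 10 or day 22 mouse it could reach 0.0333. Cells with both Ighv1-72 and a lambda V gene made up 12.0% and 9.01%, 9.88% and 3.94%, and 0.746% and 3.16%, a slope that did not pass the test (slope -0.714, exact p = 0.0667). The share of germinal centre cells that could be assigned to a heavy chain V gene moved with the day as well, from 88.4% and 87.0% at day 10 to 73.1% and 72.05% at day 22, and its part in the Ighv1-72 result was not tested. For light chains 98.5% to 99.5% of germinal centre cells were assigned in each mouse.

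Summed per mouse and fitted over all genes, the members did not pass the test between days. edgeR's quasi-likelihood test with Benjamini-Hochberg adjustment called 0 of 8 members between day 16 and day 10, where 0.277% of 10483 genes were called, 0 between day 22 and day 10 (1.75% of genes) and 0 between day 22 and day 16 (0.0477% of genes). From day 10 to day 22 the log2 difference of Ighv1-72 was -2.53 ± 0.56 (SE, adjusted p = 0.0745), of Iglv1 -1.89 ± 0.43 (adjusted p = 0.0781) and of Iglc1 -0.51 ± 0.11 (adjusted p = 0.0710), with 2 mice a day. In such sums, fewer cells that use a gene and less of its RNA per cell cannot be told apart. These 3 passed when no filter on low counts was applied (adjusted p = 8.98e-04, 9.12e-04 and 0.00275). Of the 93 heavy chain V genes tested, Ighv1-72 included, 9 were called lower at day 22 and Ighv1-22 higher, with a median log2 difference of -1.36. Of the 95 kappa V genes 6 were called lower and Igkv9-120 higher, with a median of -0.95, against 0.00 over all genes.

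Ighv1-72 and Iglv1 were found in the same cells. Iglv1 led in 259 of 334 Ighv1-72 germinal centre cells (77.5%, exact 95% binomial interval 72.7% to 81.9%, counting error only), and in 222 of 4235 cells with another heavy chain V gene (5.24%). By mouse the share in Ighv1-72 cells was 78.8% and 78.3% at day 10, 82.1% and 80.6% at day 16, and 77.8% and 63.4% at day 22. In cells with another heavy chain V gene it was 10.7% and 5.96%, 4.42% and 7.31%, and 1.40% and 4.99%. The groups did not overlap in any mouse: the difference was 71.0 ± 7.03 percentage points (SD, n = 6 mice, higher in 6 of 6), with an exact sign-change permutation p of 0.03125, the smallest that 6 mice can give. Cells of 1 clone share both chains, so the mouse and not the cell is the unit of this test.

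**Figure D2:**
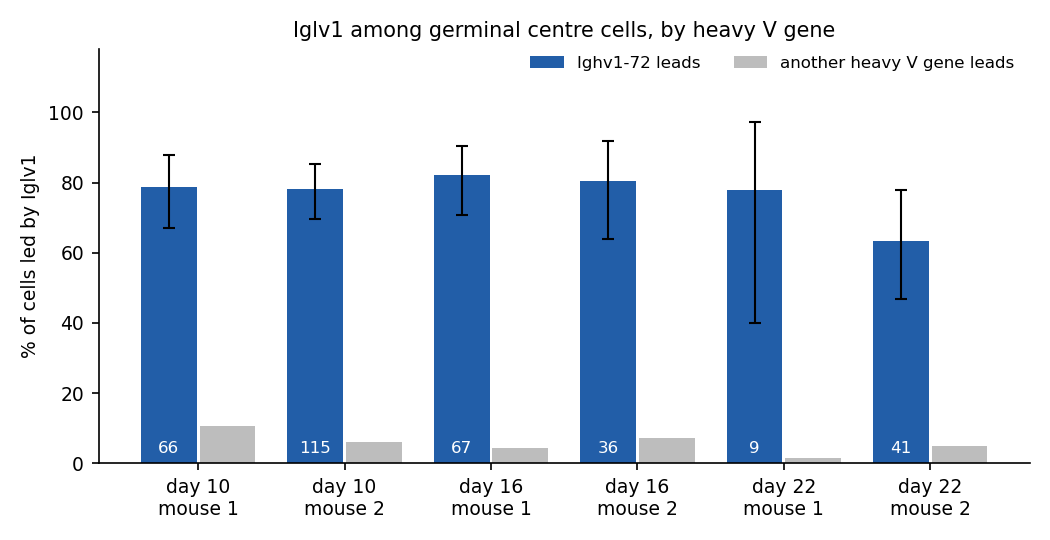
Percent of germinal centre cells in which Iglv1 leads the light chain V genes, in Ighv1-72 cells (blue) and in cells with another heavy chain V gene (grey), by mouse; the white number is the count of Ighv1-72 cells and the error bar their exact 95% binomial interval. Blue bars stand between 63.4% and 82.1% and grey bars between 1.40% and 10.7%.

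Seen from the light chain, Ighv1-72 made up 50.0% ± 15.2 (SD, n = 6 mice) of Iglv1 germinal centre cells and 2.08% ± 1.34 of cells with another light chain V gene. The share among Iglv1 cells was 56.5% and 62.5% at day 10, 70.5% and 35.4% at day 16, and 35.0% and 40% at day 22. The remaining Iglv1 cells were spread over other heavy chain V genes: Ighv14-2 in 49 cells, of which 47 came from day 10 mouse 1, day 10 mouse 2 and day 16 mouse 2, and Ighv14-3 in 28 cells, named here after their values were seen. Ighv5-17 (17 cells) and Ighv6-6 (12 cells) each came almost wholly from 1 mouse, with 16 cells in day 16 mouse 2 and 10 cells in day 22 mouse 2. Both genes, and the kappa genes that follow, were also named after their values were seen. Ighv1-72 cells without Iglv1 had no common second partner, since Iglv2, Igkv16-104 and Igkv6-15 followed with 7 cells each. Iglv1 was also counted in Ighv1-72 cells assigned to kappa, of which a mouse had 2 to 23, at a median of 1.67% of the light chain V UMIs against 0.439% in kappa V cells with another heavy chain V gene. It reached at least 10% of the light chain V UMIs in 20 of 68 such cells (29.4%), against 107 of 3989 kappa V cells with another heavy chain V gene (2.68%). The difference by mouse was 20.99 ± 17.8 points (SD, n = 6, higher in 5 of 6, exact permutation p = 0.0625).

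Within the germinal centre the share of Ighv1-72 cells was higher in DZ than in LZ in every mouse, without passing the test after adjustment. In DZ it was 14.7% and 13.7% at day 10, 16.0% and 6.00% at day 16, and 1.12% and 6.02% at day 22. In LZ it was 13.7% and 9.77%, 7.10% and 3.78%, and 0.673% and 3.58%. The difference of 3.16 ± 3.07 points (SD, n = 6, higher in 6 of 6) had an exact permutation p of 0.03125 and an adjusted p of 0.0625 over the 6 state comparisons fixed for Ighv1-72 and lambda, and without day 16 mouse 1 it was 2.01 points. It was 1.68 points (higher in 5 of 6, exact permutation p = 0.1875) when the leading gene had to hold 80% of the UMIs. DZ cells were deeper than LZ cells, with a median of 9310 against 7785 UMIs, and with cells thinned to 4727 UMIs the difference was 2.82 points (higher in 5 of 6, exact permutation p = 0.0938). For lambda V cells the DZ minus LZ difference was 4.07 ± 4.13 points (higher in 5 of 6, exact p = 0.0625, adjusted p = 0.156). In LZtoDZ cells the share of Ighv1-72 was 50.0% (5 of 10 cells) and 10.9% at day 10, 33.3% (7 of 21) and 5.00% at day 16, and 2.04% and 11.8% at day 22. Each value was above LZ of the same mouse, by 12.4 ± 15.2 points on average (exact permutation p = 0.03125, adjusted p = 0.156 over 5 comparisons) and by 7.62 points without day 10 mouse 1. LZtoDZ cells were also the deepest of the germinal centre, with a median of 22505 UMIs against 7785 in LZ. With cells thinned in the same way, which left out 662 shallower cells, 5 mice kept enough assigned cells, and the difference was 4.19 ± 10 points (higher in 3 of 5), which did not pass.

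In the fit over all genes, 4 of 8 members were higher in DZ than in LZ and none lower, where 33.9% of 9390 genes were called in either direction (edgeR quasi-likelihood, Benjamini-Hochberg). Iglc1 rose by 0.65 ± 0.04 (log2, SE, adjusted p = 2.04e-08), Ighv1-72 by 0.54 ± 0.14 (adjusted p = 0.00783), Iglv1 by 0.39 ± 0.11 (adjusted p = 0.0101) and Igkc by 0.13 ± 0.04 (adjusted p = 0.0321). Iglc2 (-0.04) and Iglc3 (0.01) did not pass. Iglc1 also stood higher in DZ among kappa V cells alone. There it was at 4.19 ± 0.768 UMIs per 10000 UMIs in DZ and 2.60 ± 0.579 in LZ (SD, n = 6 mice). In Iglv1 cells it was at 4.49 ± 0.954 and 3.69 ± 1.10. These differences within a light chain class were not tested. The calls of Ighv1-72, Iglv1 and Igkc, but not that of Iglc1, were lost with DESeq2's test (adjusted p = 0.0755, 0.116 and 0.204) and without the mouse block (adjusted p = 0.580, 0.538 and 0.332). Of 12 alternatives, the call of Iglc1 held under all, those of Ighv1-72 and Iglv1 under 10 each and that of Igkc under 6.

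The share of Ighv1-72 cells was lower in preMem than in germinal centre cells in 5 of 6 mice, without passing the test. Ighv1-72 led in 2.56% and 4.15% of assigned preMem cells at day 10, 2.56% and 5.17% at day 16, and 0% and 3.23% at day 22. The day 22 mouse 1 value was 0 of 41 cells, which allows a share of up to 7.32% when the limit is set at 3 counts, and of 8.60% by the exact 95% interval. The difference from germinal centre cells was -5.10 ± 5.11 points (SD, n = 6, exact permutation p = 0.0625, adjusted p = 0.0938). For lambda V cells it was -6.32 ± 7.05 points (lower in 4 of 6, exact p = 0.125, adjusted p = 0.208). Of 17 Ighv1-72 preMem cells, 6 were Iglv1 cells (35.3%, interval 14.2% to 61.7%). This was not tested over mice, since 11 of the 17 came from day 10 mouse 2. The 17 cells held a median of 5 Ighv1-72 UMIs, where 3 are enough for an assignment. Assigned preMem cells of other heavy chain V genes held a median of 11 UMIs of their leading gene. The part of such weak assignments in the 35.3% was not tested. preMem cells were shallower, with a median of 5357 UMIs against 8557 in germinal centre cells.

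The fit called 5 of 8 members between preMem and germinal centre cells, where 36.3% of 9170 genes were called. Ighv1-72 fell by 1.08 ± 0.24 (log2, SE, edgeR adjusted p = 0.00151) and Iglv1 by 0.71 ± 0.25 (adjusted p = 0.0321), while Iglc2 rose by 2.06 ± 0.09 (adjusted p = 2.04e-12), Iglc3 by 1.10 ± 0.07 (adjusted p = 1.89e-10) and Iglc1 by 0.27 ± 0.09 (adjusted p = 0.0297). The lambda V gene and the lambda constant genes of the same locus thus moved in opposite directions. The calls of Iglc2 and Iglc3 held under all 12 alternatives, that of Ighv1-72 under 10 and those of Iglv1 and Iglc1 under 6 each. Without the mouse block the edgeR adjusted p was 0.243 for Ighv1-72, 0.244 for Iglv1 and 0.165 for Iglc1. Of the 62 heavy chain V genes tested, Ighv1-72 included, 19 were higher and 6 lower in preMem (median 0.68), and of 74 kappa V genes 12 were higher and 8 lower (median 0.43), against a median of -0.01 over all genes.

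In plasma cells 6 of the 8 members stood at least 2.79 higher on the log2 scale than in germinal centre cells and passed the test, Iglc3 was called with a smaller difference, and Iglv2 did not pass. Ighv1-72 cells held a median of 377 Ighv1-72 UMIs in PC against 9 in germinal centre cells, and Iglv1 cells 2862.5 Iglv1 UMIs against 73.5. Kappa V cells of the PC well held a median of 2 Iglv1 UMIs and a mean of 45.7. That well also held cells of other states, so these 2 values are not the Iglv1 background of the PC state. The background in kappa V cells of the PC state alone was not measured and may be higher. In kappa V cells the kappa V genes held a median of 2359 UMIs in PC and 62 in germinal centre cells. The median depth was 18723 UMIs in PC and 8557 in germinal centre cells. The fit called 7 of 8 members higher and none lower, where 46.0% of 9143 genes were called: Iglv1 by 5.11 ± 0.36 (log2, SE, edgeR adjusted p = 7.05e-07), Ighv1-72 by 4.65 ± 1.25 (adjusted p = 0.0107), Iglv3 by 3.47 ± 0.94, Igkc by 3.46 ± 0.13, Iglc1 by 3.39 ± 0.16, Iglc2 by 2.79 ± 0.14 and Iglc3 by 0.62 ± 0.14. Relative to all UMIs, Ighv1-72 was lower in PC than in germinal centre cells in both day 16 mice. It stood at 97.9 against 150 CPM in day 16 mouse 1 and at 37.1 against 61.5 CPM in day 16 mouse 2. In the mice of day 10 and day 22 it was higher in PC. Day 10 mouse 2 held 11937 of the 15370 Ighv1-72 UMIs in PC. The Iglc3 call held under all 12 alternatives (0.52 to 0.77), none of which scaled to all UMIs. It depends on the scaling: relative to all UMIs Iglc3 stood at 558 ± 102 CPM in PC and 546 ± 37.9 CPM in germinal centre cells (SD, n = 6 mice), a difference within the spread over mice. Iglv2 had 3.21 ± 2.50 (adjusted p = 0.321) and passed only without the mouse block (6.66 ± 1.61, adjusted p = 0.00266). Iglv3 led in only 1 of 242 PC, and day 22 mouse 1 held 5606 of its 7054 UMIs in PC. Day 16 mouse 1 held 923 of them, although Iglv3 led in none of its PC. In CPM, Iglv3 was higher in PC than in germinal centre cells in every mouse. The median over members was 3.42, against -0.14 over all genes. Of the antibody assembly genes, which serve the folding, joining and secretion of the chains (Jchain, Mzb1, Hspa5, Pdia4 and Xbp1), 5 of 5 were higher, with a median of 4.26. Of 57 heavy chain V genes tested, 17 were higher and 0 lower (median 2.20).

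The share of plasma cells that used these genes did not pass the test against germinal centre cells. Ighv1-72 led in 21.1% (4 of 19) and 18.1% (23 of 127) of assigned PC at day 10, 8.33% (1 of 12) and 3.57% (1 of 28) at day 16, and 4.65% (2 of 43) and 8.33% (1 of 12) at day 22. The day 10 mice held most of them, 27 of 32. The difference from germinal centre cells was 2.63 ± 4.01 points (SD, n = 6, higher in 4 of 6, exact permutation p = 0.1875, adjusted p = 0.219). Measured as a share of heavy chain V UMIs, where cells with much RNA count more, the difference was -1.48 points. Lambda V cells differed by 4.29 ± 7.51 points (higher in 5 of 6, exact p = 0.219, adjusted p = 0.273). Of the 32 Ighv1-72 plasma cells, 19 were Iglv1 cells (59.4%, interval 40.6% to 76.3%) and 5 were Iglv2 cells, all 5 from day 10 mouse 2. That mouse held 23 of the 32, of which 12 were Iglv1 cells (52.2%), against 4 of 4 in day 10 mouse 1. The Iglv1 share of these plasma cells was not tested over mice. Of the 4 Ighv1-72 prePC, 3 were Iglv1 cells.

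**Figure D3:**
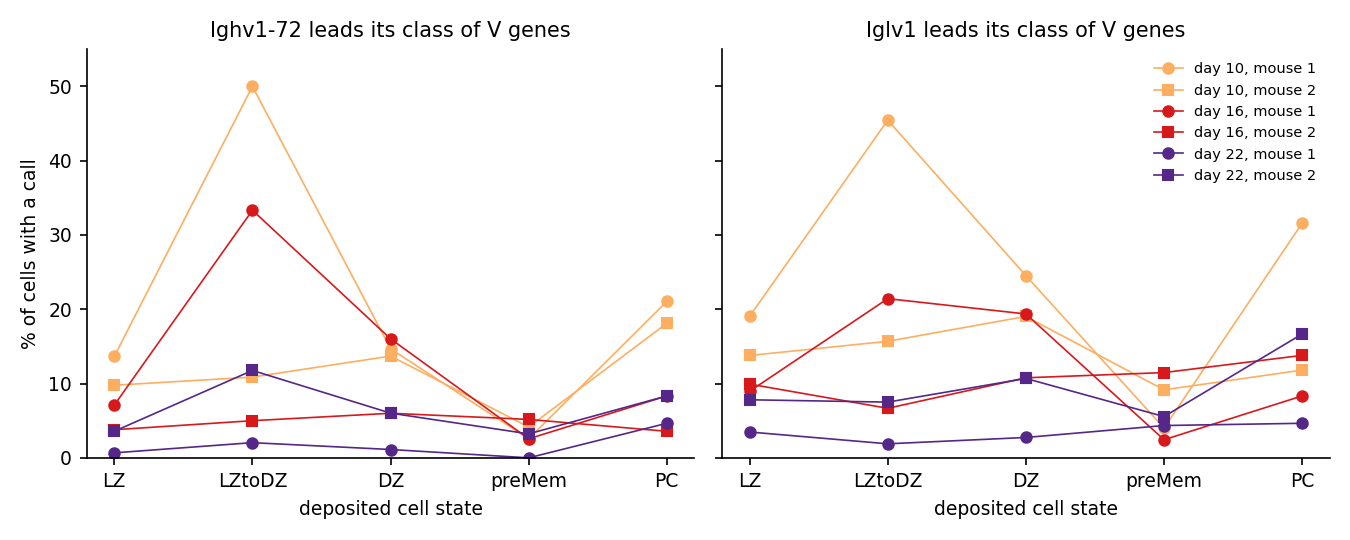
Percent of assigned cells in which Ighv1-72 leads the heavy chain V genes (left) or Iglv1 the light chain V genes (right), by deposited state; each line joins the values of 1 mouse and has no order in time. Ighv1-72 lies at 0% to 5.17% in preMem and reaches 50.0% in LZtoDZ, where that mouse has 10 assigned cells.

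The light chain V genes divided the cells into lambda and kappa, and the constant genes did not. Libraries made from the 5′ end of the RNA read first into the V gene, and the constant genes were covered by few UMIs in germinal centre cells. By V genes, only 370 of 6616 cells (5.59%) had a lambda share between 20% and 80%. By constant genes (Iglc1, Iglc2 and Iglc3 against Igkc), 4983 of 6553 cells (76.0%) lay there. In germinal centre cells led by a kappa V gene, the lambda constant genes together outnumbered Igkc in 47.3% of assigned cells. In those led by Iglv1 they did so in 83.8%. In plasma cells the constant genes went with the V gene: lambda outnumbered Igkc in 7.92% of kappa V cells and in 30 of 30 Iglv1 cells, and Iglc1 led the lambda constant genes in each of these 30.

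**Figure D4:**
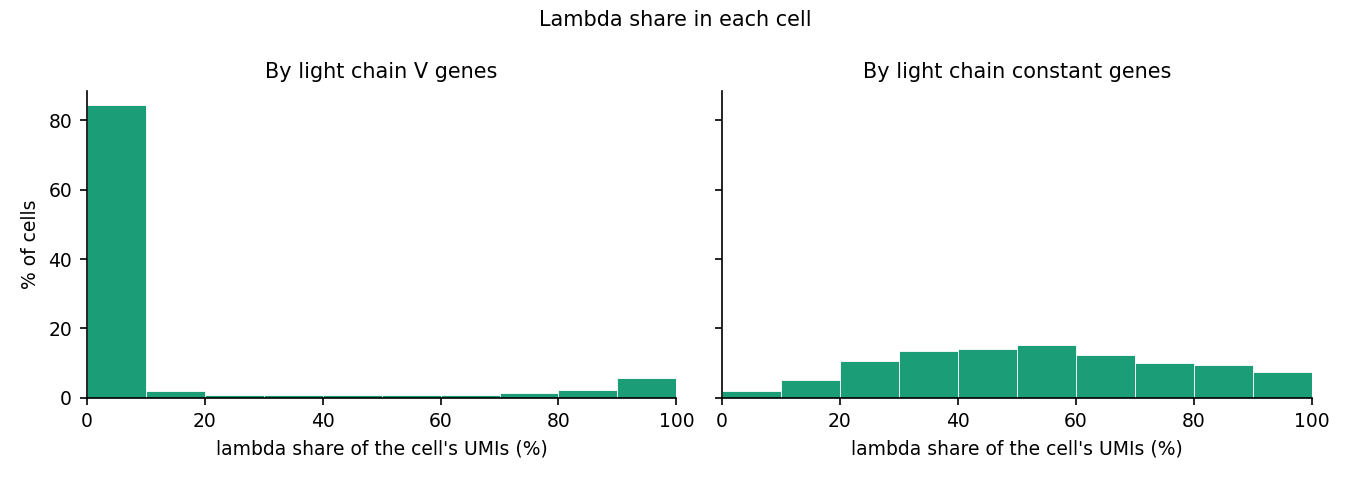
Distribution over cells of the lambda share of light chain V UMIs (left) and of light chain constant UMIs (right), in bins of 10 percentage points, as percent of cells. By V genes 84.4% of cells lie below 10%, whereas by constant genes the fullest bin, 50% to 60%, holds 15.4%.

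Iglc3 UMIs were found in nearly all kappa V cells. In germinal centre cells led by a kappa V gene, 96.4% had an Iglc3 UMI, and Iglc3 stood at 5.86 ± 0.207 UMIs per 10000 (SD, n = 6 mice), against 2.80 ± 0.508 in Iglv1 cells. Iglc3 was thus lower in the cells that use lambda, in 6 of 6 mice, by 3.07 ± 0.580 per 10000 (exact permutation p = 0.03125, adjusted p = 0.125 over 8 tests), and so was Igkc, at 4.31 ± 2.02 against 13.6 ± 1.51 (same p). Iglc1 was at 3.84 ± 0.808 in Iglv1 cells and 3.18 ± 0.686 in kappa V cells (higher in 5 of 6, exact p = 0.0625, adjusted p = 0.167). Iglc2 was at 2.74 ± 0.549 and 2.99 ± 0.430, a difference within the spread over mice. In plasma cells Igkc reached 106 ± 13.9 in kappa V cells (n = 6) and Iglc1 57.9 ± 14.8 in Iglv1 cells (n = 3 mice with at least 3 such cells), against 16.6 ± 4.50 in kappa V cells, while Iglc3 in kappa V cells was at 6.08 ± 0.688, close to its germinal centre value. Iglc2 was at 13.4 ± 3.21 in kappa V plasma cells (n = 6) and 7.08 ± 2.12 in Iglv1 plasma cells (n = 3). The higher level of Iglc2 in PC than in germinal centre cells was thus also present among kappa V cells alone, which was not tested.

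**Figure D5:**
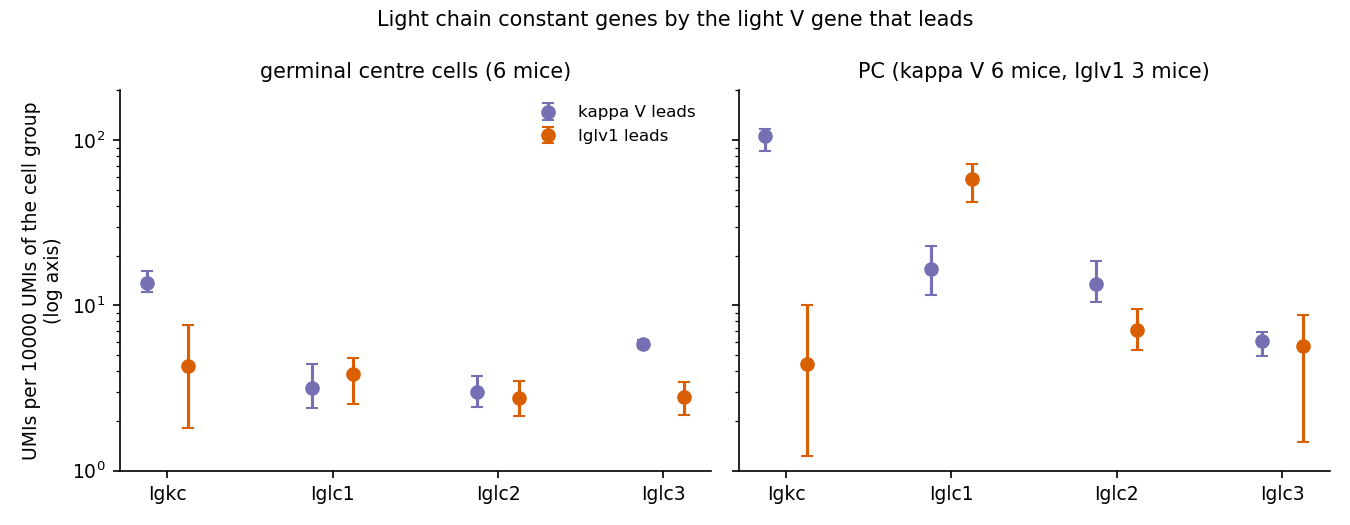
UMIs of each light chain constant gene per 10000 UMIs (log axis) in cells led by a kappa V gene or by Iglv1, in germinal centre cells (left) and PC (right); points are means over mice and bars run from the lowest to the highest mouse. In PC, Igkc and Iglc1 separate the classes, and in germinal centre cells Iglc3 is higher in kappa V cells, at 5.86 against 2.80.

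The rise of Iglc2 and Iglc3 in preMem was also present among kappa V cells alone. Iglc2 stood at 11.9 ± 3.32 UMIs per 10000 in kappa V preMem cells and 2.99 ± 0.430 in kappa V germinal centre cells, and Iglc3 at 11.7 ± 0.984 and 5.86 ± 0.207 (both higher in 6 of 6 mice, exact permutation p = 0.03125, adjusted p = 0.0625 over 4 tests). Igkc was at 14.0 ± 2.52 and 13.6 ± 1.51 (exact p = 0.875). With lambda called from the constant genes, preMem minus germinal centre cells was 30.0 ± 14.8 points and PC minus germinal centre cells -24.9 ± 9.93 points (SD, n = 6, both exact permutation p = 0.03125, adjusted p = 0.0625). Called from the V genes, the same differences were -6.32 and 4.29 points. By constant genes, too, lambda was more frequent in Ighv1-72 cells than in others, by 21.2 ± 6.25 points (6 of 6 mice, exact permutation p = 0.03125), against 72.2 ± 8.11 points by V genes.

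Germinal centre cells with both Ighv1-72 and a lambda V gene were compared with the other assigned germinal centre cells in the 5 mice with at least 10 such cells, where the smallest exact permutation p is 0.0625. Ighg1, the constant gene of IgG1, led the heavy chain constant genes in 10.4% and 17.1% of them at day 10, 10.2% and 14.3% at day 16, and 17.6% in day 22 mouse 2. In the other cells it led in 28.5% and 25.3%, 38.3% and 37.5%, and 45.1%. The difference was -21.04 ± 8.21 points, lower in 5 of 5 mice (SD, n = 5, exact permutation p = 0.0625, adjusted p = 0.175 over 7 features), and with at least 10 UMIs for each call the difference was 6.12 points lower over 4 mice. Ighm, the constant gene of IgM, led in 62.3% ± 21.9 against 55.1% ± 12.6. Ighg2b, the constant gene of IgG2b, led in 21.7% ± 21.1 against 8.20% ± 4.09, with 10 of 17 cells in day 22 mouse 2. By the deposited phase calls alone, 69.2% ± 7.42 of the Ighv1-72 lambda cells and 57.0% ± 4.58 of the others were in S or G2M (exact permutation p = 0.0625, adjusted p = 0.175). The day 10 mice, with 53 and 92 such cells, differed by little (60.4% against 59.9% and 63.0% against 62.2%). The values were 75.9% against 50.3% and 70.0% against 57.0% at day 16, and 76.9% against 55.3% in day 22 mouse 2. Day 22 mouse 1, with 7 such cells and not in the test, had 42.9% against 57.3%. Ighv1-72 cells of the germinal centre had a median depth of 10893 UMIs and those of other heavy chain V genes 9050, and the part of depth in these differences was not tested.

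Over the 31 sums of mouse and state with at least 10 cells, the genes whose log2(CPM + 1) ran most like Ighv1-72, out of 8183 compared, were Ighv1-62-3 (Pearson r = 0.83), Iglv1 (0.82), Dpp3 (0.73), Derl1 (0.72) and Tg (0.72). For Iglv1 they were Ighg1 (0.90), Ift20 (0.89), Txndc11 (0.89), Spcs2 (0.88) and Tg (0.88). Ighv1-62-3 is 99.3% identical to Ighv1-72, so the counts of this pair are uncertain where a read fits both. The sums share mice and range from germinal centre to plasma cells, so these values are a description with no test.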

How the data were processed

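Single cells of 6 mice were measured with 10x Genomics 5′ v2 gene expression libraries in a PC and a non-PC well, with Cell Ranger and Seurat named in the submitters' processing notes together with the builds mm10 and GRCm38; versions and parameters are not given in the sources used here. The values used are the deposited raw UMI counts per gene and cell (14493 genes, 6619 cells), with the authors' mouse, time point, state and cell cycle phase of each cell. For every one of the 6619 cells the counts summed to the total the authors list. No cell was removed, and no doublet caller was run. The 21 GEO samples are libraries that pool mice, so the mouse named in the cell table was the replicate, and mice of a day were numbered in the order of their names. Receptor sequences were not analysed here.

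The 8 members and all gene lists were chosen with earlier results of these data known. All 8 members are named, with the 5 other heavy chain V genes and 5 kappa V genes that lead most germinal centre cells, and the 5 genes that run most like Ighv1-72 and Iglv1; other names are said to be chosen afterwards. The tests on shares of cells took the mouse as the unit: 2-sided exact permutation (sign changes within mice, or mice over days), with Benjamini-Hochberg adjustment within a family. Comparisons of states, and of Ighv1-72 lambda cells with others, took mice with at least 10 assigned cells in each group. The tests of light chains in Ighv1-72 cells had no such minimum, and day 22 mouse 1 entered with 9 Ighv1-72 cells. With 6 pairs the exact permutation p cannot go below 0.03125. Counts summed per mouse and population were tested with edgeR 4.0.16 (glmQLFit, TMM, filterByExpr, mouse as a block between states; R 4.3.3), adjusted over the whole table and called at 0.05. The block rests on the same mice giving both populations. DESeq2 1.42.0, other minimums of UMIs (1 and 10), an 80% dominance rule, shares of UMIs, cells of the matching well only, fits without immunoglobulin genes or with at least 30 cells a sum, and leaving out each mouse were alternatives. The lambda class was planned from the constant genes; that from V genes, the LZtoDZ comparison, the tests of the other features of Ighv1-72 lambda cells and of constant genes by light chain, and thinning to 1 depth were added after the data were seen. The scripts were tested on simulated data. Intervals are exact Clopper-Pearson and cover counting error only. V and C sequences and gene positions come from GENCODE M21 (GRCm38).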

Additional observations from a re-analysis of the deposited data

Results flagged for a closer look

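Of the per-mouse values, 2 stood apart from those of the other 5 mice, both in day 22 mouse 1 and both for lambda called from the constant genes. The share of germinal centre cells so called was 35.4% in that mouse, against 52.0% to 60.8% in the others. Its DZ minus LZ difference was -7.37 points, the lowest of the 6 mice. Chance flags about 1 in 20 groups of values; 20 groups were examined, which share cells and are not independent. By light chain V genes the same mouse had 3.45% lambda cells, the lowest of the 6, and did not stand apart by the same measure. In this mouse Ighv1-22 led in 26.6% and Igkv9-120 in 28.7% of assigned germinal centre cells.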

How the results depend on the processing

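Of 162 values under other settings, 136 kept their direction and side of the threshold (shares) or stayed within 1.5 times the count of genes called (fits); where no cause is named, the cause was not tested. With 1 UMI enough for a call, 4 state comparisons passed after adjustment: Ighv1-72 in preMem minus germinal centre cells (-5.42 points) and in DZ minus LZ (2.90), and lambda by constant genes in PC (-25.1) and preMem (29.6). The same 4 passed as shares of UMIs (-4.17, 2.34, -16.4 and 18.1). As a share of UMIs, Ighv1-72 in PC minus germinal centre cells reversed to -1.48. With at least 10 UMIs, lambda by constant genes in Ighv1-72 cells was 22.7 points higher, in 5 of 6 mice, but no longer passed, and the Ighg1 difference by constant class reversed to 0.490, with fewer mice (n = 2). The slope of Ighv1-72 with lambda V cells passed with at least 10 UMIs (-0.719) and with cells thinned to 1 depth (-0.694).

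Without the replicate block, an unpaired permutation of the same values, lambda by constant genes passed in PC (-24.9) and preMem (30.0), as did Ighg1 by constant class (-18.2) and by V gene (-21.04). The block ended no other call of a share of cells; the member calls that differ in edgeR without it, in DZ, preMem and PC, are given with those fits above.

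DESeq2's test called 1606 genes in DZ against LZ (3181 with edgeR), 81 between day 16 and day 10 (29) and 15 between day 22 and day 16 (5). Without the filter on low counts the 3 comparisons of days called 156 (day 16 and day 10), 457 (day 22 and day 10, against 183) and 26 (day 22 and day 16), and without immunoglobulin genes 134, 458 and 1.

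Leaving out each mouse in turn gave slopes of -1.55 to 0.271 for lambda by constant genes, positive without day 22 mouse 1, and of -1.29 to -0.846 for lambda V cells, with no call after adjustment (the limits of these tests without a mouse are given with the slopes). Lambda in Ighv1-72 cells was 19.8 to 23.0 points higher by constant genes and 70.5 to 75.2 by V genes; an exact sign test of 5 pairs cannot go below p = 0.0625. Genes called ranged from 5 (without day 16 mouse 1; 7 without day 10 mouse 2, 10 without day 16 mouse 2) to 37 between day 16 and day 10, from 34 (without day 22 mouse 1; 67 without day 10 mouse 2, 121 without day 10 mouse 1) to 154 between day 22 and day 10, and from 3 (without day 16 mouse 2) to 18 (without day 22 mouse 2) between day 22 and day 16. Ighv1-72 calls rest on few UMIs in germinal centre cells, and plasma cells number 12 to 127 a mouse, so shares of PC resolve only large differences.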
